A study of Homo sapiens with 6 samples.

Results

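The genes described here are 10 members of the fibroblast growth factor (FGF) system, namely the receptors FGFR1, FGFR2, FGFR3, FGFR4 and FGFRL1, the ligands FGF2 and FGF5, the carrier protein FGFBP1, the docking protein FRS2 and the co-receptor KLB. They were picked by gene name from the 58735 genes of the count table, and 9 of the 10 had enough reads for the comparison between groups, which covered 15754 genes. They were proposed with earlier results of the same comparison in view, so their differences between the groups are given as a description and support nothing further. Total RNA was sequenced from A549, a human lung adenocarcinoma cell line grown in RPMI1640 medium with serum. Control cells overexpressed an empty vector and the other cells overexpressed IL17D, a cytokine of the IL-17 family, with 3 libraries in each group. The open reading frame was carried by a lentivirus with the human PGK promoter and an IRES-GFP cassette. Whether the cells were cloned is not given in the sources used here, nor whether each library had its own transduction or culture, so the p-values measure the spread between these libraries, which may be technical.

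Most FGFs are secreted proteins that bind receptor tyrosine kinases at the cell surface together with heparan sulfate. The activated receptor phosphorylates FRS2, which recruits GRB2 and SOS and so feeds the RAS-ERK cascade, and Sprouty and DUSP proteins then dampen the signal. In lung, the pathway is known for branching of the embryonic airway and, in lung cancers, for amplification of FGFR1.

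The libraries held 14319398 to 16521021 counts on genes. IL17D had 18 to 34 counts in the control libraries and 26772 to 32155 counts in the libraries labelled IL17D. Values below are CPM, the usual measure of a gene's counts relative to its library's total, here scaled by edgeR's TMM method, and RPKM, the CPM per kilobase of the gene length in the table, which is the scale for levels between genes. Of 5 epithelial markers, KRT8 and KRT18, which encode the keratins of simple epithelia, averaged 7633 and 3584 CPM in control cells, while EPCAM was near 1.05 CPM and KRT19 at 0.370 CPM. CDH1, which encodes the epithelial adhesion protein E-cadherin, fell from 43.3 ± 2.65 CPM to 35.6 ± 3.31 CPM (SD, n = 3; log2 fold change -0.28, SE 0.072, adjusted p = 0.031 in the edgeR test). That call was lost without control replicate 2 or 3 or IL17D replicate 1 or 2, with adjusted p-values up to 0.269 in the edgeR test, and in DESeq2 (adjusted p = 0.0659). The 4 alveolar type II markers summed to 0.364 to 0.897 CPM, the 3 leukocyte markers to 0.248 CPM at most, with PTPRC and CD3E at 0 in every library, and the 3 endothelial markers to 0.607 CPM at most. The 5 fibroblast markers summed to 22.7 to 25.1 CPM in control and 19.5 to 24.3 CPM in IL17D-overexpressing libraries, nearly all of it COL1A1. The part of CDH1's difference in the results below was not tested.

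The promoters of the members, from RefSeq on GRCh38.p14, are shown first because the members differ in CpG content and span a wide range of RNA levels. A promoter here is 250 bases before to 50 after the start site, and 9 of the 10 members matched, all but FGFR1. CpG, the C-G step that is rare in the genome except in CpG islands, is in capitals. The first 3 belong to FGFR4, FGF2 and FRS2, at 18.8, 14.8 and 3.47 RPKM in control cells. The 4th belongs to FGF5, a ligand gene with a single read. The last 2 belong to FGFBP1 and KLB, which have few CpG, at 2.36 and 0.677 RPKM. Not shown are FGFRL1, at 13.9 RPKM, and FGFR3 and FGFR2, at 2.10 and 0.215 RPKM.
FGFR4, chr5:177086665-177086964, plus strand: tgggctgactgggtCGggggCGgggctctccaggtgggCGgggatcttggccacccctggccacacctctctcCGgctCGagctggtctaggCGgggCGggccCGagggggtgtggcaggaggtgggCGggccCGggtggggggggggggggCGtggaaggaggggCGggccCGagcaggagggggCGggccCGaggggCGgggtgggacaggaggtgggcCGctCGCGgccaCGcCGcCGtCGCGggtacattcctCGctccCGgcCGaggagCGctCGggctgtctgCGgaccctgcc
FGF2, chr4:122826581-122826880, plus strand: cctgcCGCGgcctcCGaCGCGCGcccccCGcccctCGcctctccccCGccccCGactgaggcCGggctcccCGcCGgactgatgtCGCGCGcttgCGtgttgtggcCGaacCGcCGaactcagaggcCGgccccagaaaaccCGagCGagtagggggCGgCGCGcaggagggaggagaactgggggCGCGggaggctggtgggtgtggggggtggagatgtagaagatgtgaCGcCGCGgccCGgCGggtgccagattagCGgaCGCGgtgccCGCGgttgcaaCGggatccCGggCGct
FRS2, chr12:69470138-69470437, plus strand: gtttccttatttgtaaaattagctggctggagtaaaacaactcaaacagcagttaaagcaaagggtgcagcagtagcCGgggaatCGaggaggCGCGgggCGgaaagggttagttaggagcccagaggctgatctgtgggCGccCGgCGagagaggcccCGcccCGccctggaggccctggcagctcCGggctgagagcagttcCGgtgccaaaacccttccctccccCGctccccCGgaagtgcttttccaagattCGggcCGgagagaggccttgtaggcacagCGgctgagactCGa
FGF5, chr4:80266338-80266637, plus strand: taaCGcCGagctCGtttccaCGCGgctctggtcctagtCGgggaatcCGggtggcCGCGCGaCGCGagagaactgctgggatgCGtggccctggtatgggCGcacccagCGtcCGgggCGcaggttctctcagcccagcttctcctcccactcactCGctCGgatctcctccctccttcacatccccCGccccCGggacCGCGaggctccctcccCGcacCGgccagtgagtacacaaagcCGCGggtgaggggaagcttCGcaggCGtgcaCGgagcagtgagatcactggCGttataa
FGFBP1, chr4:15938691-15938990, minus strand: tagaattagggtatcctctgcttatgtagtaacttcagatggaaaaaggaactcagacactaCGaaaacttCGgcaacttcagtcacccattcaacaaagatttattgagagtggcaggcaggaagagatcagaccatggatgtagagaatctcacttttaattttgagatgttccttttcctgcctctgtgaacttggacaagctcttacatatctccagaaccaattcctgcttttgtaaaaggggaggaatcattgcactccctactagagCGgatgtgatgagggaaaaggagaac
KLB, chr4:39406680-39406979, plus strand: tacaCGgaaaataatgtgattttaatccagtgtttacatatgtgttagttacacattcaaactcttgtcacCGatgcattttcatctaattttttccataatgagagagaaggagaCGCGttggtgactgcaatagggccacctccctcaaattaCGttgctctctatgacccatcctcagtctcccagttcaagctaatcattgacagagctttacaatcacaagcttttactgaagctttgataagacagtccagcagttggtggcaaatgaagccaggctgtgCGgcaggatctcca

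The CpG count was 30 for FGFR4, 41 for FGF2, 18 for FRS2 and 31 for FGF5, but 3 for FGFBP1 and 6 for KLB. The ratio of observed CpG to the number expected from the C and G content was at least 0.6 in 7 of the 9 promoters, from 0.65 in FRS2 to 1.15 in FGFR2, and under 0.6 in 2, with 0.23 in FGFBP1 and 0.45 in KLB. The start site used for FGFRL1, 1 of the 7, lies 2528 bases from the gene start in the count table. The start sites of the other members lie within 123 bases, so the FGFRL1 window may not be its main promoter. Among 14876 protein-coding genes with a promoter, 66.7% had a ratio of at least 0.6. Of those genes, 84.6% had enough reads in A549 cells to be tested, against 34.7% of the genes under 0.6. FGF5 had a ratio of 0.93 and a single read in all libraries, whereas FGFBP1 and KLB, both under 0.6, were read in every library. FGFR2 and FGFR3, with ratios of 1.15 and 0.91, had 0.215 and 2.10 RPKM in control cells, beside 2.36 RPKM for FGFBP1. The letters GGGCGG or, on the other strand, CCGCCC, known as a GC box, were in 7 of the 9 windows and in 55.0% of the 17363 promoters searched. The ETS core CCGGAAGT or its complement ACTTCCGG was in the FRS2 window alone, at position 236 counted from its 5′ end, and in 5.63% of all promoters. The EGR site GCGGGGGCG or CGCCCCCGC, which can overlap a GC box, was in the windows of FGFR2 and FGFR3 and in 6.33% of all promoters. The AP-1 site TGAGTCA, searched on both strands, was in 0 of the 9 windows and in 4.16% of all promoters. The TATA motif TATAAA, searched likewise, was in 0 of the 9 windows and in 10.1% of all promoters. These are matches of letters only.

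**Figure D1:**
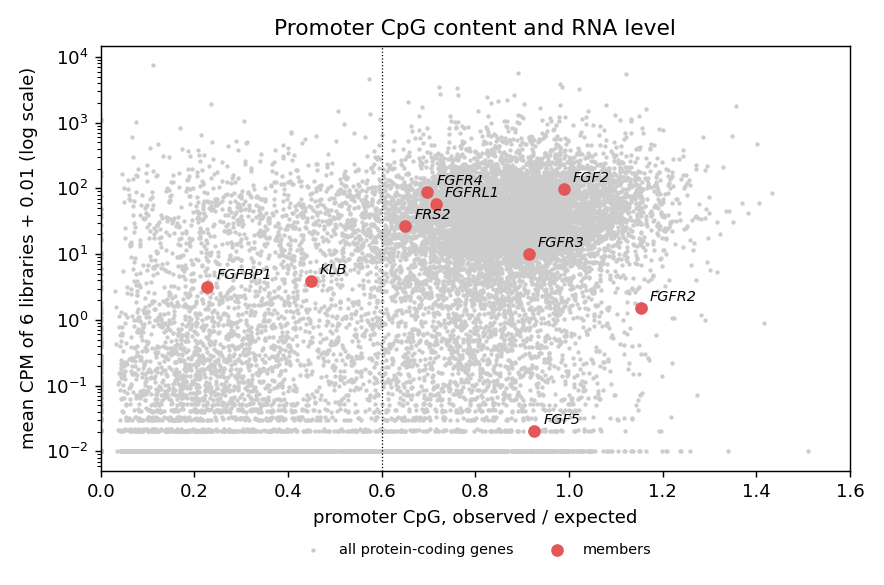
Ratio of observed to expected CpG in the promoter (x axis, no unit) against mean CPM of the 6 libraries plus 0.01 (y axis, log scale) for 14876 protein-coding genes (grey) and 9 members (red), with a dotted line at 0.6. FGFBP1 and KLB lie left of the line at 3.20 and 3.93 CPM, and FGF5 lies right of it at the bottom.

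FGFR1 and FGFR4 had the highest levels of the members. FGFR1 (ENSG00000077782, chromosome 8 of GRCh38, 38400215 to 38468834, minus strand) had 31.2 ± 0.894 RPKM in control cells (SD, n = 3) and FGFR4 (ENSG00000160867, chromosome 5, 177086886 to 177098144) 18.8 ± 1.08 RPKM. FGFR3 (ENSG00000068078, chromosome 4, 1793293 to 1808872) followed far below with 2.10 ± 0.173 RPKM, and FGFR2 (ENSG00000066468, chromosome 10, 121478334 to 121598458) had 0.215 ± 0.0447 RPKM. FGFRL1 (ENSG00000127418, chromosome 4, 1009936 to 1026897), a receptor-like protein without a tyrosine kinase domain, was at 13.9 ± 0.315 RPKM. Of the ligands, FGF2 (ENSG00000138685, chromosome 4, 122826708 to 122898236), or basic FGF, was at 14.8 ± 0.248 RPKM, close to FGFRL1. Among the partners, FRS2 (ENSG00000166225, chromosome 12, 69470349 to 69579789) was at 3.47 ± 0.287 RPKM and FGFBP1 (ENSG00000137440, chromosome 4, 15935569 to 15938740), which releases FGF2 from the extracellular matrix, at 2.36 ± 0.230 RPKM. KLB (ENSG00000134962, chromosome 4, 39406853 to 39451536), which encodes β-Klotho, the co-receptor of the endocrine FGFs FGF19 and FGF21, was at 0.677 ± 0.123 RPKM.

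In this order, the libraries of 2 neighbouring pairs overlapped over all 6 libraries, namely FGF2 with FGFRL1 and FGFBP1 with FGFR3, so these pairs cannot be ranked. With the longest annotated transcript as length, FGFR1 stood at 69.5 RPKM in control cells, FGFRL1 at 15.8 RPKM passed FGF2 at 14.8 RPKM, and the other members kept their places. FGF5 (ENSG00000138675, chromosome 4, 80266599 to 80336680), a ligand known from control of hair length, had 1 count in IL17D replicate 1 and 0 counts in the other 5 libraries, where 3 counts, the limit that a count of 0 allows, equal 0.182 to 0.210 CPM. This limit covers counting error only.

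**Figure D2:**
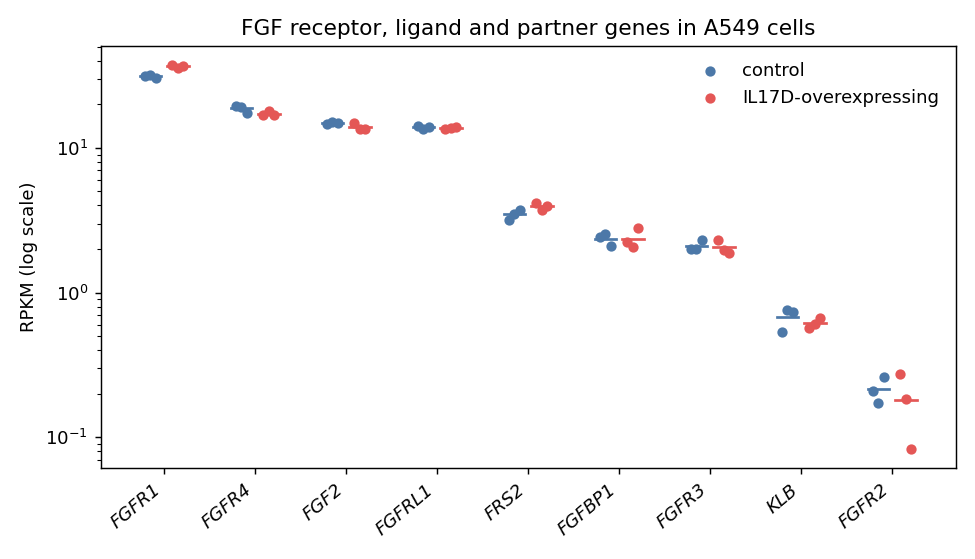
RPKM (y axis, log scale) of 9 members in each of 3 control (blue) and 3 IL17D-overexpressing (red) libraries, with a bar at each group's mean. From FGFR1 at 31.2 to FGFR2 at 0.215 RPKM in control cells the members span over 2 orders of magnitude, and FGF5, with 1 count in all, is not drawn.

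FGFR1 differed between the groups. It had 434, 443 and 419 CPM in control replicates 1, 2 and 3 and 516, 494 and 507 CPM in the IL17D-overexpressing replicates. All 3 IL17D libraries lay above all 3 control libraries, with a gap wider than the spread within either group. The means were 432 ± 12.4 CPM and 506 ± 11.0 CPM (SD, n = 3), a rise of 17.1%, or a log2 fold change of 0.23 with a standard error of 0.033 and a 95% interval of 0.16 to 0.29. With 6424 to 8512 counts per library, FGFR1 was the best counted of the members. The edgeR fit called 1 member higher, with an adjusted p under 0.05, where it called 0.673% of all tested genes higher. It called 0 members lower, where it called 0.908% of all tested genes. DESeq2 and limma voom also called 1 member each. Without adjustment, 3 of the 9 tested members had a p under 0.05, 2 higher and 1 lower, where 11.6% of all tested genes had one, 5.59% higher and 5.99% lower. FGFR1 was also the 1 member of 9 whose groups did not overlap, against 15.8% of all tested genes, or 7.48% with IL17D higher and 8.33% with IL17D lower. In RNA of whole cultures, a different share of cells with a transcript and a different amount of it per cell cannot be told apart. Since this contrast chose the members, nothing is read from these counts.

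The other receptors did not pass. FGFR4 had 94.4, 92.9 and 84.7 CPM in control and 81.2, 86.3 and 81.0 CPM in IL17D-overexpressing libraries. Control replicate 3 lay below IL17D replicate 2, so the groups overlapped. Its log2 fold change was -0.13 (SE 0.051, 95% interval -0.23 to -0.025 before any adjustment over genes). FGFR3 had 9.70, 9.73 and 11.2 CPM in control and 11.3, 9.53 and 9.09 CPM in IL17D-overexpressing libraries, with the highest value of each group nearly equal. Its log2 fold change was -0.031 (SE 0.13, 95% interval -0.29 to 0.23). FGFR2 rested on 26, 19 and 32 counts in control and 34, 23 and 9 counts in IL17D-overexpressing libraries. IL17D replicate 1 was the highest of all 6 libraries and IL17D replicate 3 the lowest, and the log2 fold change of -0.24 had an interval from -0.97 to 0.48, which turned to 0.080 without IL17D replicate 3. FGFRL1 had 58.6, 56.2 and 58.1 CPM against 55.9, 56.8 and 57.4 CPM, with a log2 fold change of -0.024 (SE 0.056). Its interval ran from -0.14 to 0.089, so a change as large as that of FGFR1 lies outside it.

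The balance among the receptors with a kinase domain moved with FGFR1. Its share of their summed RPKM was 59.0%, 59.9% and 60.1% in the control libraries and 65.8%, 64.1% and 66.2% in the IL17D-overexpressing libraries. The share of FGFR4 was 34.8% to 36.8% against 29.7% to 32.1%. The groups did not overlap for either share, and the shares of FGFR3 and FGFR2 stayed at or below 4.58%. Summed over the 4 receptors, the level was 535 ± 15.9 CPM in control and 600.1 ± 9.89 CPM in IL17D-overexpressing cells (SD, n = 3), while FGFR2, FGFR3 and FGFR4 without FGFR1 summed to 102 ± 4.10 CPM and 94.2 ± 3.28 CPM. By the longest transcript as length, the share of FGFR1 was 68.7 ± 0.554% and 73.7 ± 0.978% (SD, n = 3). The shares follow from the same counts as the differences above and are not a separate measurement.

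**Figure D3:**
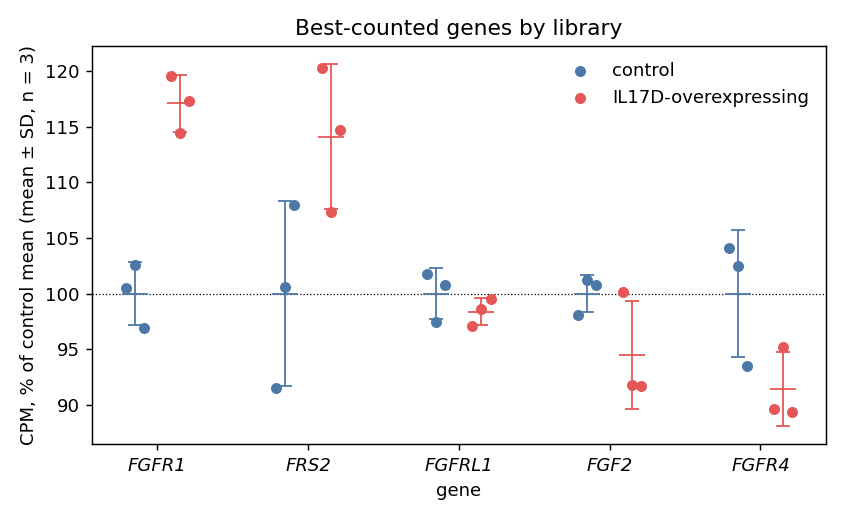
CPM of the 5 best-counted members as a percentage of the control mean (y axis), 1 point per library, with the mean and SD of 3 control (blue) and 3 IL17D-overexpressing (red) libraries. The IL17D points of FGFR1 lie above all its control points around a mean 17.1% higher, and the groups of the other 4 genes overlap.

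The ligand FGF2, the carrier and the partners were not called, and their groups overlapped. FGF2 had 98.5, 102 and 101 CPM in control and 101, 92.1 and 92.0 CPM in IL17D-overexpressing libraries. IL17D replicate 1 sat among the control libraries and the other 2 below them, and the log2 fold change was -0.081 (SE 0.048, 95% interval -0.18 to 0.016). FGFBP1 had 3.32, 3.45 and 2.85 CPM against 3.03, 2.79 and 3.78 CPM, fully interleaved, with a log2 fold change of -0.0072 (SE 0.22, 95% interval -0.46 to 0.44). FRS2, the docking protein, had 23.0, 25.3 and 27.1 CPM in control and 30.2, 26.9 and 28.8 CPM in IL17D-overexpressing libraries. Control replicate 3 lay just above IL17D replicate 2, and the log2 fold change of 0.19 (SE 0.083, 95% interval 0.022 to 0.36 before adjustment) did not pass. KLB had 3.25, 4.62 and 4.47 CPM against 3.46, 3.70 and 4.06 CPM, with the lowest value in control replicate 1, and a log2 fold change of -0.14 (SE 0.20, 95% interval -0.55 to 0.28). For FGFR2, KLB and FGFBP1, with 9 to 72 counts per library, a difference of the size seen in FGFR1 was not detectable at this depth. The interval of FRS2 holds the log2 fold change of FGFR1, 0.23, and that of FGFR3 ends close to it. The lack of a call for FRS2 and FGFR3 is thus no clear difference from FGFR1. Over the 9 tested members the median log2 fold change was -0.031, with 2 above and 7 below 0, beside a median of -0.00044 over all tested genes.

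**Figure D4:**
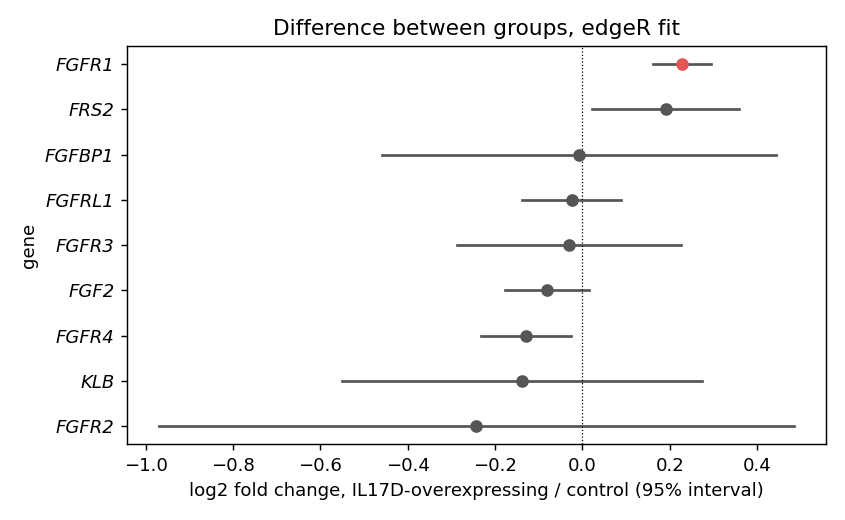
Log2 fold change of IL17D-overexpressing over control cells (x axis) for 9 members, with the 95% interval of edgeR's fit as bars and the called gene in red. FGFR1 stands at 0.23, and the interval of FGFR2, with 9 to 34 counts per library, is the widest at -0.97 to 0.48.

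The genes around FGFR1 were read as well. Reads of genes on opposite strands that overlap cannot be told apart here, because whether the counting used strand is not given in the sources used here. LETM2, a mitochondrial inner membrane protein gene on the plus strand (chromosome 8, 38386207 to 38409527), shares 9313 bases with FGFR1 where both genes end. It had 56, 52 and 69 counts in control and 92, 91 and 100 counts in IL17D-overexpressing libraries, and rose from 3.77 ± 0.450 CPM to 6.03 ± 0.833 CPM (SD, n = 3). Its log2 fold change of 0.67 (SE 0.18) passed the edgeR test with an adjusted p of 0.048, which ranged from 0.031 to 0.289 over the alternatives and passed in 4 of 12. Leaving out any library except control replicate 3 ended the call, as did DESeq2 and limma voom. RPS20P22, a pseudogene on the same strand within FGFR1, had 65, 76 and 63 counts in control and 106, 90 and 82 counts in IL17D-overexpressing libraries, and did not pass (adjusted p = 0.307 in the edgeR test). Of the 8 protein-coding genes within 250 kb of FGFR1, 6 were tested, all 6 had a log2 fold change above 0 (0.040 to 0.67), and LETM2 was the 1 called. Of all 15754 tested genes, 7858 were above 0 and 1.58% were called. The value of PLPP5, 0.040, fell to -0.0014 in its lowest alternative. NSD3, a histone methyltransferase gene next to LETM2 (chromosome 8, 38269697 to 38382272), had 96.2, 102 and 105 CPM in control and 113, 109.6 and 109.4 CPM in IL17D-overexpressing libraries, without overlap, and did not pass (log2 fold change 0.13, SE 0.046, adjusted p = 0.198 in the edgeR test). LSM1, BAG4, DDHD2 and PLPP5 overlapped between the groups, and STAR and C8orf86, at 0.350 CPM or less in every library, were not tested. The part of neighbouring transcripts in the counts of FGFR1 was not tested.

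Few exact 31-base stretches were shared among FGFR1, FGFR2, FGFR3 and FGFR4, and similarity short of an exact match was not measured. Of the 14416 distinct 31-base stretches in FGFR1's GENCODE transcripts, 519 also occur in other genes, of which 126 are in the antisense gene AC087623.1, 113 in LETM2 and 9 in other FGFR genes. None of the stretches of FGFRL1, FGFBP1 and FRS2 occurs elsewhere, and 0.338% of those of FGFR3 do. FGF2 has the most, 11.6%, since 746 of its 782 shared stretches lie in NUDT6, a nudix hydrolase gene on the opposite strand that overlaps its 3′ part by 9540 bases. NUDT6 had 116, 106 and 110 counts in control and 133, 98 and 97 counts in IL17D-overexpressing libraries, where FGF2 had 1316 to 1657. By position, 6 of the 10 members lie on chromosome 4, which holds 3.54% of the tested genes. Of the 557 tested genes of that chromosome 1.62% were called, close to the 1.58% of all tested genes.

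The genes most like FGFR1 over the 6 libraries were found by Pearson's r of log2 CPM among 9399 protein-coding genes with a mean of at least 10 CPM. These were ZNF623 (r = 0.999), LCMT1 (0.991), RREB1 (0.990), MAP3K14 (0.989) and MCL1 (0.987). The points share their libraries and the difference between groups, and r is a description. A gene picked for following FGFR1, which differed between the groups, was also picked for such a difference. The differences and p-values given next are thus a description and no test of these genes. MAP3K14, the kinase NIK of noncanonical NF-κB signaling, rose from 111 ± 2.69 to 130 ± 1.74 CPM (SD, n = 3; log2 fold change 0.23, adjusted p = 0.0016 in the edgeR test), and MCL1, an anti-apoptotic BCL2 relative, from 324 to 338 CPM in the control libraries to 365 to 369.7 CPM (log2 fold change 0.16, adjusted p = 0.0049 in the edgeR test). The other 3 did not pass, with log2 fold changes of 0.081 for ZNF623, 0.16 for LCMT1 and 0.20 for RREB1. Among the members, r with FGFR1 ran from -0.67 for FGFR4 to 0.72 for FRS2.

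The rest of the pathway was read in 4 lists of genes. Other genes of the FGF family, not all of them secreted ligands, were nearly absent: of 20 FGF genes, 1 was tested, FGF17, with 1.08 ± 0.358 CPM in control and 1.16 ± 0.503 CPM in IL17D-overexpressing cells (SD, n = 3; log2 fold change 0.12, adjusted p = 0.953 in the edgeR test), and 5 had no count in any library. FGF22, at 0.781 CPM in control and 0.403 CPM in IL17D-overexpressing cells, was too low to test. FGF13, named after its values were seen, had 1, 4 and 6 counts in control libraries, or 0.061, 0.276 and 0.372 CPM. It had 0 in the 3 IL17D-overexpressing libraries and was not tested, and the control counts lie near the 3 that a count of 0 allows. No gene of this list was called by edgeR, DESeq2 or limma voom, and 0 had an unadjusted p under 0.05. With 1 gene tested, where edgeR called 1.58% of all tested genes, nothing is read from this.

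Of 30 co-receptor and heparan sulfate genes 20 were tested, and 1 was called lower, where 0.908% of all tested genes were, and 0 higher. DESeq2 and limma voom also called 1 gene each. The median log2 fold change was -0.045, and 5 genes had an unadjusted p under 0.05, where 11.6% of all tested genes had one. HSPG2, which encodes the basement membrane proteoglycan perlecan, had 478, 525 and 506 CPM in control and 447, 449.9 and 447 CPM in IL17D-overexpressing libraries. It fell without overlap from 503 ± 23.8 CPM to 448 ± 1.74 CPM (SD, n = 3; log2 fold change -0.17, SE 0.034, adjusted p = 0.0033 in the edgeR test, and 0.061 without control replicate 2). AGRN, the proteoglycan agrin, the most abundant of the list, had 605 ± 22.3 and 584 ± 16.5 CPM (SD, n = 3; adjusted p = 0.605 in the edgeR test). FLRT3, a membrane protein known to bind FGF receptors and named after its values were seen, had 21.8, 21.7 and 22.4 CPM in control and 27.2, 27.1 and 26.7 CPM in IL17D-overexpressing libraries. The groups were far apart for their spread, but its log2 fold change of 0.30 (SE 0.081) had an adjusted p of 0.051 in the edgeR test and passed in 1 of 12 alternatives.

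Adaptors and proximal enzymes gave no call. All 27 genes were tested and 0 were called by edgeR, DESeq2 or limma voom, where edgeR called 1.58% of all tested genes. In edgeR's test 1 had an unadjusted p under 0.05, where 11.6% of all tested genes had one. The median log2 fold change was 0.048, with a range from -0.19 to 0.19. Of the 27, 20 were above 0 and 7 below, beside 7858 of all 15754 tested genes above 0. The groups did not overlap for 6, 4 with IL17D higher and 2 lower, against 15.8% of all tested genes. SHC1, an adaptor, had 394 ± 22.1 and 403 ± 20.1 CPM (SD, n = 3), and PTPN11, the phosphatase SHP2 that binds FRS2 and GAB1, 317 ± 11.1 and 325 ± 5.60 CPM (SD, n = 3).

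Among FGF target and feedback genes 4 of 19 were called higher and 0 lower, with a median log2 fold change of 0.083 and 16 of 19 above 0. Without adjustment, 8 had a p under 0.05 in the edgeR test, 6 higher and 2 lower, where 11.6% of all tested genes had one. The groups did not overlap for 8, 6 with IL17D higher and 2 lower, against 15.8% of all tested genes. Of all 15754 tested genes, 0.673% were called higher and 0.908% lower, the median was -0.00044 and 7858 were above 0, and nothing particular to the list is read from its counts. MYC, a growth transcription factor, had 192, 190 and 187 CPM in control and 227, 225 and 222 CPM in IL17D-overexpressing libraries, without overlap (log2 fold change 0.24, SE 0.037, adjusted p = 6.3e-05 in the edgeR test). FOSL1, an AP-1 subunit, rose from 44.8 ± 1.83 to 54.0 ± 1.95 CPM (SD, n = 3; log2 fold change 0.27, adjusted p = 0.011 in the edgeR test). EGR1, an immediate early zinc finger factor, rose from 6.53 ± 0.528 to 9.87 ± 2.28 CPM (SD, n = 3; log2 fold change 0.60, adjusted p = 0.030 in the edgeR test), and PHLDA1 from 137 ± 0.917 to 154 ± 8.54 CPM (SD, n = 3; log2 fold change 0.17, adjusted p = 0.030 in the edgeR test). In the edgeR test without 1 library, EGR1 lost its call without control replicate 2 or 3 or IL17D replicate 2 (adjusted p up to 0.334), PHLDA1 without control replicate 1 or 2 or IL17D replicate 1 or 2 (up to 0.212), and FOSL1 without control replicate 2 or IL17D replicate 1 (up to 0.0937). EGR1 was also not called by DESeq2 (adjusted p = 0.0722) or limma voom (adjusted p = 0.0565), each of which called 3 genes of the list. The number called fell to 1, MYC, without control replicate 2, and to 2 without IL17D replicate 1 or 2. All 4 are general targets of growth factor signaling, and what made them differ was not tested. No SPRY, SPRED, DUSP or ETV gene was called. SPRY1, a feedback inhibitor named after its values were seen, had 6.20, 5.38 and 5.21 CPM against 3.64, 3.70 and 3.99 CPM without overlap (log2 fold change -0.57, SE 0.18, adjusted p = 0.116 in the edgeR test). IL17RD, also called SEF, an IL-17 receptor family protein that inhibits FGF signaling, also named after its values were seen, had 9.76, 12.6 and 8.69 CPM against 10.7, 9.10 and 13.1 CPM (adjusted p = 0.889 in the edgeR test). CCND1 and DUSP4, the most abundant of the list, differed by 0.043 (adjusted p = 0.668) and 0.086 (adjusted p = 0.225) on the log2 scale in the edgeR test. Earlier results of these libraries already showed MYC, FOSL1 and MAP3K14, so the list is no independent evidence of its direction.

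**Figure D5:**
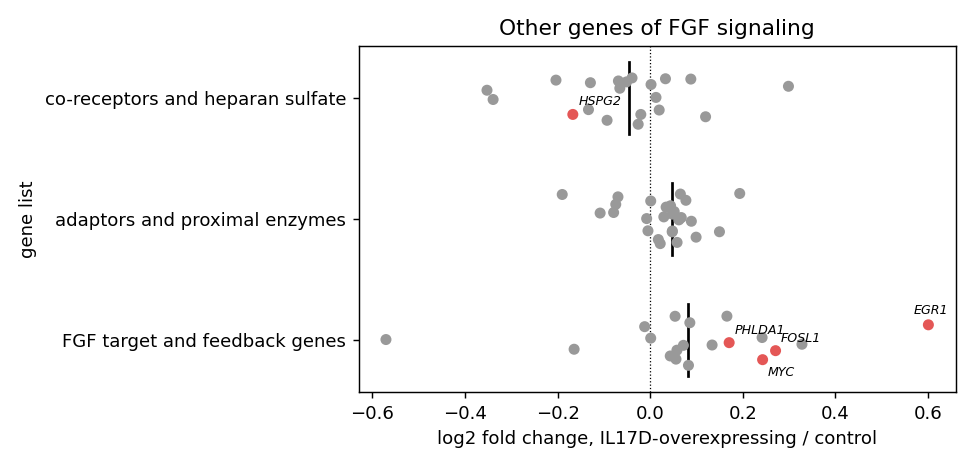
Log2 fold change of IL17D-overexpressing over control cells (x axis) for the tested genes of 3 lists (y axis), 1 point per gene, red where the adjusted p was under 0.05, with a black bar at each median. The medians are 0.083 for targets and feedback genes, 0.048 for adaptors and -0.045 for co-receptors, with 4, 0 and 1 genes called.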

How the data were processed

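RNA-seq counts of 3 control and 3 IL17D-overexpressing A549 libraries were analysed. The authors deposited 1 table with the count of reads on each gene per library, not normalized, and every per-sample column was used. The submitters' processing notes name Bowtie2 and hg38. The counting tool and its use of strand are not given in the sources used here. The gene length is the authors' own column of the deposited table. Groups came from the sample titles.

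Counts were filtered by edgeR's filterByExpr, scaled by TMM and compared by the quasi-likelihood test without covariates (R 4.3.3, edgeR 4.0.16), two-sided, with Benjamini-Hochberg adjustment over 15754 genes. Standard errors were taken from the log2 fold change and its F statistic. The biological coefficient of variation was 4.40%. Counts of libraries of 1 group scattered beyond counting noise (chi-square over its degrees of freedom 2.19 or more). None was thus taken for the same library sequenced again, but this cannot tell separate cultures from repeated preparations of 1 culture. Alternatives were DESeq2 1.42.0, its size factors, limma 3.58.1 with voom, 2 other filters, the replicate number as a block, each library left out, and the longest GENCODE 29 transcript as length. Scaling by total counts, RLE or upper quartile would shift all log2 fold changes by at most 0.0065 in size. The steps were tested on simulated data. Shared sequence was measured with 31-base stretches on both strands of GENCODE 29 transcripts, and figures were drawn in Python 3.11.15 with matplotlib 3.10.9.

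The members and gene lists were chosen with earlier results of these data known. The genes named are IL17D, the members, the called genes and the 2 most abundant of each list, the protein-coding genes within 250 kb of FGFR1, the 5 most like FGFR1, and markers; genes overlapping FGFR1 or FGF2 were added, and others are marked as named after their values were seen.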

Additional observations from a re-analysis of the deposited data

How the results depend on the processing

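FGFR1 was called higher under all 12 alternatives, with a log2 fold change of 0.21 to 0.25, and no other member was called under any of them. The alternatives reuse the 6 libraries in whose view the members were proposed, so this describes the processing and is no further support. DESeq2 gave no adjusted p for FGFR2, which was not tested with at least 10 counts in every library. FGFR2, FGFR3 and FGFBP1 took either sign when a library was left out. With each library left out in turn, 69 to 129 genes were called higher (69 without IL17D replicate 3) and 76 to 138 lower (76 without IL17D replicate 3, 79 without IL17D replicate 1, 95 without control replicate 2). The co-receptor list kept 0 or 1 gene called lower, and the target list 1 to 4 called higher, with 2 without IL17D replicate 1 or IL17D replicate 2. With DESeq2's size factors in edgeR's fit, 1 co-receptor gene, FLRT3, was called higher. Replicate numbers did not pair the libraries: the correlations of same-numbered libraries, as deviations from the group means, were -0.015 to 0.010. With the replicate number as a block 115 genes were called higher and 157 lower, and the calls in the members and lists numbered the same. Genes under about 100 counts per library, such as FGFR2, KLB and FGFBP1, are limited by depth. FGFR3, with 130 to 186 counts, and FRS2, with 366 to 498, also had intervals that reached about the change of FGFR1.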
